A study of Homo sapiens with 6 samples.

Results

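The interleukin-6 family of cytokines and its receptors was followed on 6 HG-U133 Plus 2.0 arrays of human breast cancer cells. It was defined by gene name, as the probe sets annotated to IL6, IL11, LIF, CLCF1, IL6R, IL6ST, OSMR, LIFR, STAT3 and SOCS3. Of these 10 genes 9 were analysed, through 30 probe sets of the 54613 in the table that are not control probe sets, and CLCF1 was not analysed here. No probe set was assigned jointly to one of these genes and another gene. The cells are the 1833 subline of MDA-MB-231, a triple-negative human breast cancer line, and 1833 is known for its growth in bone. The cells labelled S153E-RKIP (3 arrays) were transduced with a lentiviral vector for a mutant of Raf kinase inhibitor protein that the series calls the more potent inhibitor of Raf-1, and were kept under puromycin. The control cells (3 arrays) are described by the series as carrying the vector, and both groups grew in medium with 10% serum. The labels do not say whether the transduced cells were a pool or 1 clone, and they call the arrays biological replicates without saying how these were made, so the spread behind the p-values, and the p-values with it, may be technical.

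The transcripts measured here did not settle the S153E-RKIP label. PEBP1, the gene of Raf kinase inhibitor protein, had a difference of -0.093 (95% confidence interval -0.23 to 0.040) on its probe set with the highest signal. Its other probe sets had differences of -0.13 and -0.082, and none was called. The position of the PEBP1 probe sets relative to the introduced sequence was not analysed here. The source name of these samples speaks of a short hairpin RNA against HMGA2, whereas their titles and transduction label name S153E-RKIP, and HMGA2 had a difference of -0.023 (95% confidence interval -0.16 to 0.11) on its probe set with the highest signal. None of the 9 HMGA2 probe sets was called, and 1 of them had lower signals on all arrays labelled S153E-RKIP (-0.26, adjusted p = 0.278 over all probe sets). The samples are therefore called the arrays labelled S153E-RKIP throughout, and every direction rests on that label. All 8 markers of the line, among them VIM, CD44 and KRT18, had signals above the median of all genes, and none was called. The mean signal of these 8 was lower on every array labelled S153E-RKIP (12.30 to 12.37) than on every control array (12.40 to 12.46). At an unadjusted p under 0.05 there were 4 of them, in both directions, where 15.7% of all genes were. None of the 8 measured blood cell markers exceeded that median. Their mean signal ran from 5.20 to 5.31 on the arrays labelled S153E-RKIP and from 5.14 to 5.22 on control arrays, with PTPRC, the pan-leukocyte marker, at 3.93 over all arrays. Of 10 fibroblast and endothelial markers 2 exceeded the median, and none was called. Of 7 luminal breast markers, listed beforehand as low or absent in this line, 4 nevertheless exceeded it. These were KRT19, EPCAM, GATA3 and, barely, ESR1 (6.65 against a median of 6.64). KRT19 was called lower.

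Cytokines of this family share a signalling chain, gp130, which IL6ST encodes. Interleukin-6 and interleukin-11 first bind a receptor of their own, IL6R or IL11RA, and then bring together gp130 pairs, while leukemia inhibitory factor signals through gp130 paired with LIFR, and oncostatin M through gp130 paired with OSMR or LIFR. The engaged chains activate Janus kinases, which phosphorylate STAT3, and STAT3 switches on SOCS3, whose product binds gp130 and ends the signal. In breast cancer the family is known for sustaining STAT3 activity, and interleukin-6 and interleukin-11 are known for promoting osteoclast formation in bone.

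The comparison of the arrays labelled S153E-RKIP with control asks which genes Raf kinase inhibitor protein regulates in these cells. Within the family IL6 rose 3.24-fold, and no other member gene passed the test when each gene was read by its probe set with the highest mean signal. The gp130 gene IL6ST, IL6R and LIF had higher signals on all 3 arrays labelled S153E-RKIP than on any control array, by 1.20-fold, 1.18-fold and 1.16-fold, and none passed the threshold. LIFR and SOCS3 had lower ones, by 1.28-fold and 1.25-fold, and did not pass it either. A single dimmer probe set of LIFR was called lower. STAT3 differed by -0.0040 on the log2 scale, and its confidence interval reached no further than 1.08-fold upward and 1.09-fold downward. A change in transcripts per cell and a change in the share of expressing cells cannot be told apart in these bulk samples, for rises or falls.

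Values are log2 signals as deposited, and differences are S153E-RKIP minus control on the same scale. Each gene was tested with limma together with all 19775 genes, with Benjamini-Hochberg adjustment over all of them, and was called at an adjusted p under 0.05. Precision is limited by the 3 arrays per group, and over all genes the standard error of a difference had a median of 0.072. By this test 1 of the 9 member genes was called higher, where 0.688% of all genes were, and 0 were called lower, where 1.21% of all genes were. At an unadjusted p under 0.05 there were 6 member genes, where 15.7% of all genes were. In 4 member genes all arrays labelled S153E-RKIP lay above all control arrays, as in 9.31% of all genes, and in 2 they all lay below, as in 10.8% of all genes. The median difference was 0.11 over the 9 genes and 0.010 over all genes.

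**Figure D1:**
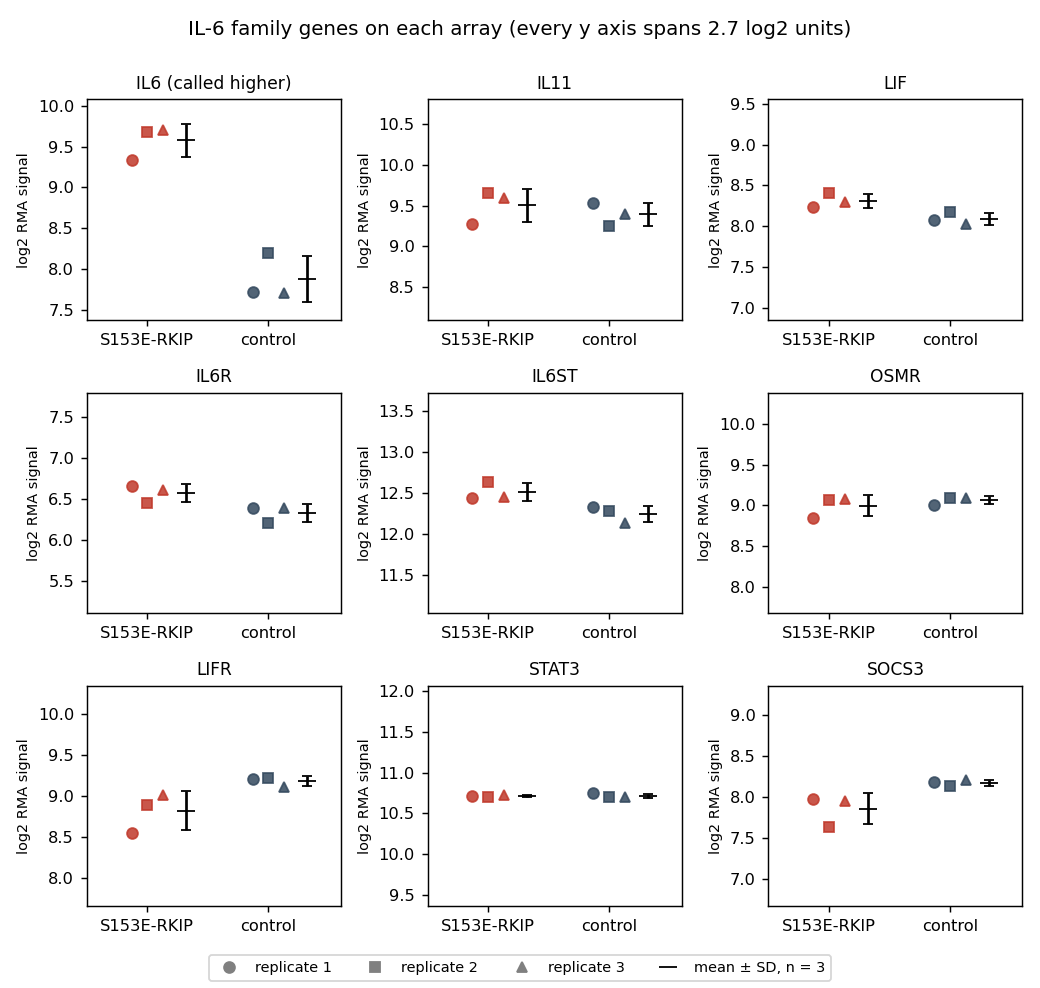
Log2 signal of the 9 member genes on every array, each read by its probe set with the highest mean, with the arrays labelled S153E-RKIP in red at the left and control arrays in dark blue at the right of each panel. Points are single arrays, bars are the mean ± SD (n = 3), and every y axis spans the same range, so the gap of IL6, from 9.34 at the lowest array labelled S153E-RKIP to 8.20 at the highest control array, can be set beside the small shifts of the other genes.

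IL6 encodes interleukin-6, the cytokine that gives the family its name. On the arrays labelled S153E-RKIP its signal was 9.34, 9.68 and 9.71 in replicates 1, 2 and 3, against 7.72, 8.20 and 7.71 in control replicates 1, 2 and 3. The groups were far apart: the lowest array labelled S153E-RKIP lay 1.13 above the highest control array, and control replicate 2 was the highest of its group. IL6 rose by 1.70 (SE 0.15, limma adjusted p = 0.00114) with a 95% confidence interval from 1.36 to 2.04, or 3.24-fold with an interval from 2.56-fold to 4.11-fold. A rise at least as large was reached by 13 genes of 19775, IL6 included, and by size in either direction IL6 ranked 16. The call held in each of the 17 alternatives run, with differences from 1.61 to 1.86. The highest adjusted p among them was 0.0189, without S153E-RKIP replicate 2. IL6 has 1 probe set on the array, so no other probe set can be set beside it.

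The stretch before the start of IL6 is shown beside that of IL11, since IL6 is the cytokine gene that was called and IL11 is one that was not. Each sequence is the 250 bases before the annotated start, from RefSeq on GRCh38.p14, printed 5′ to 3′ on the gene's strand, with capitals for motif matches. The IL6 stretch is chr7:22726950-22727199 on the plus strand, and the IL11 stretch is chr19:55370464-55370713 on the minus strand.
IL6: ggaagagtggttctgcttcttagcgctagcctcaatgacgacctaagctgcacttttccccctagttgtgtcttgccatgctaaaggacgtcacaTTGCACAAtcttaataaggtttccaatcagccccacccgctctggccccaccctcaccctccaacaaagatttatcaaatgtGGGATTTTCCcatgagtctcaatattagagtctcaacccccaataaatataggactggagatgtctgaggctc
IL11: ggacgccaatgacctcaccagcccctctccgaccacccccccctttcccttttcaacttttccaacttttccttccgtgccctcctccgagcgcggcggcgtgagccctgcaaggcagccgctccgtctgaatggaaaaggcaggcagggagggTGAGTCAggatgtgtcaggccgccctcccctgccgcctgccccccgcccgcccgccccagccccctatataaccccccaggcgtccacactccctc

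Both strands were searched for the NF-kB decamer, for the AP-1 motif TGANTCA, for the STAT motif TTCNNNGAA and for the C/EBP motif TTGCNNAA. The IL6 stretch held 1 match to the NF-kB decamer, GGGATTTTCC, from base 73 to base 64 before the start. It also held 1 C/EBP match, TTGCACAA, from base 155 to base 148. The IL11 stretch held 1 AP-1 match, TGAGTCA, from base 96 to base 90, and no match overlapped another. Among 35114 such stretches of human genes the NF-kB decamer was found in 9.96%, the C/EBP motif in 9.05%, and the AP-1 and STAT motifs in 6.57% each. Of the member genes 8 had at least 1 stretch in the table, 11 in all. The NF-kB decamer was matched in 2 of these 11, those of IL6 and IL6ST. The STAT motif was matched in 2, both of LIFR, the AP-1 motif in 1 and the C/EBP motif in 3. A match is only a description of the letters.

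The pattern of IL6 over the 6 arrays was set against that of all other genes. The genes most like it were SOD2, a mitochondrial superoxide dismutase gene (Pearson r = 0.998), KYNU, which encodes kynureninase (0.996), and NFKBIZ, which encodes a nuclear IkB protein (0.996). VNN1, a pantetheinase gene, and the chemokine gene CXCL2 followed, with r of 0.995 and 0.994. All 5 were called higher. The 6 points fall into 2 groups, so these correlations describe mainly that difference between groups and carry no test.

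IL11 encodes interleukin-11, which also signals through gp130. Its signal was 9.27, 9.65 and 9.59 on the arrays labelled S153E-RKIP, against 9.53, 9.25 and 9.40 on control arrays. The groups overlapped, with the lowest array labelled S153E-RKIP near the lowest control array. IL11 differed by 0.11 (SE 0.11, adjusted p = 0.658), with a 95% confidence interval from -0.14 to 0.37 that allows a change of up to 1.29-fold upward or 1.10-fold downward. It was 0.23 without S153E-RKIP replicate 1 and 0.040 without S153E-RKIP replicate 2, never past the threshold. The other probe set of IL11 had a difference of 0.090 (adjusted p = 0.563 over all probe sets).

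LIF encodes leukemia inhibitory factor. It had signals of 8.23, 8.40 and 8.30 on the arrays labelled S153E-RKIP, against 8.08, 8.17 and 8.02 on control arrays. The groups did not overlap, but the gap between them was only 0.060. The difference of 0.22 (SE 0.069, 95% confidence interval 0.063 to 0.38) did not pass the threshold (adjusted p = 0.186). Its adjusted p lay between 0.0942 and 0.436 in the 17 alternatives. For both IL11 and LIF the upper end of the interval lay below the lower end of that of IL6, and the difference between the genes was not tested.

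Among the receptors, IL6ST is the shared chain, read by 7 probe sets. The probe set with the highest signal gave 12.44, 12.64 and 12.46 on the arrays labelled S153E-RKIP, against 12.33, 12.28 and 12.13 on control arrays. The groups did not overlap, and the gap was 0.12. This probe set differed by 0.27 (SE 0.078, adjusted p = 0.161), with a 95% confidence interval from 0.088 to 0.45. A moderated variance with trend and robust estimation gave an adjusted p of 0.0354 for the same difference, and in the other 16 alternatives it was not called.

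The 30 member probe sets were also tested one by one, together with all 54613. By that test 1 was called higher, where 0.366% of all probe sets were, and 1 lower, where 0.685% were. All arrays labelled S153E-RKIP lay above all control arrays in 10 of the 30, as in 8.09% of all probe sets, and below them in 7, as in 9.06%. Probe sets of 1 gene measure the same RNA and are no replicates. The median difference was 0.015 over the 30, against 0.010 over all probe sets.

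**Figure D2:**
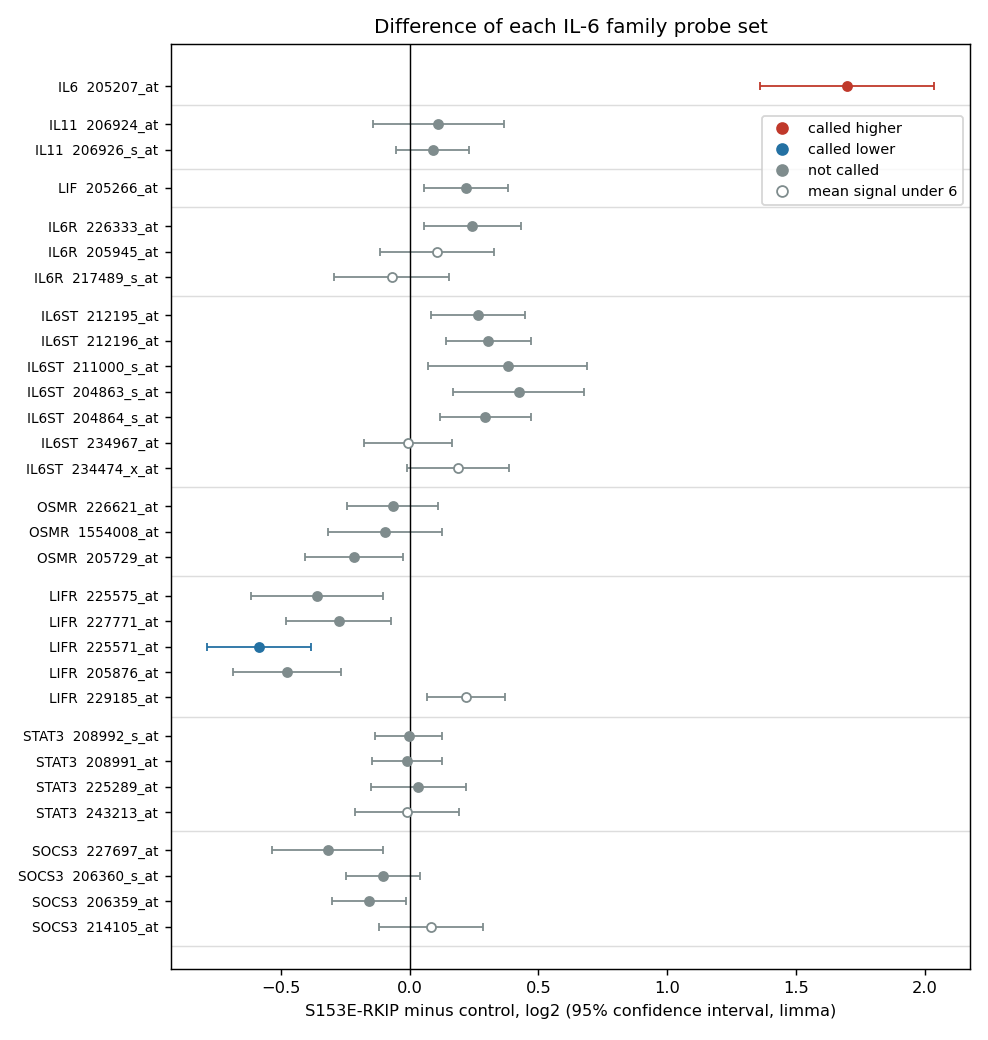
Difference of each of the 30 member probe sets, S153E-RKIP minus control on the log2 scale, with its 95% confidence interval from limma. Probe sets are grouped by gene and ordered by mean signal within a gene, filled points have a mean signal above 6 and open points one below it, and colour marks the calls. The IL6 probe set stands at 1.70, the 5 filled IL6ST probe sets lie at 0.27 to 0.42, and the 4 filled LIFR probe sets lie at -0.58 to -0.28 with the open one at 0.22.

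The 5 IL6ST probe sets with a mean signal above 6 all had non-overlapping groups and differences from 0.27 to 0.42. None was called, and their adjusted p over all probe sets ran from 0.120 for 212196_at to 0.289 for 211000_s_at. With trend and robust estimation 212196_at was called higher (adjusted p = 0.0217), its only call in 16 alternatives. The largest difference, 0.42 on 204863_s_at, came from signals of 9.99, 9.78 and 9.96 on the arrays labelled S153E-RKIP against 9.23, 9.62 and 9.60 on control arrays, where control replicate 1 was the lowest. The remaining probe sets, 234967_at and 234474_x_at, had mean signals of 4.13 and 3.62, below the median of all probe sets (5.62), with overlapping groups. As the mean of all 7, the difference was 0.26 (adjusted p = 0.0661).

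IL6R encodes the receptor chain that binds interleukin-6. Its signal was 6.66, 6.45 and 6.62 on the arrays labelled S153E-RKIP, against 6.40, 6.21 and 6.40 on control arrays, below the median of all genes (6.64) on average. The groups did not overlap, and the gap was 0.056. IL6R differed by 0.24 (SE 0.080, adjusted p = 0.206), with a 95% confidence interval from 0.060 to 0.43. The other IL6R probe sets had mean signals of 4.09 and 3.75 and differences of 0.11 and -0.070. With these dim probe sets averaged in, IL6R differed by 0.094 (adjusted p = 0.475).

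OSMR encodes the chain that pairs with gp130 for oncostatin M. It had signals of 8.85, 9.07 and 9.08 on the arrays labelled S153E-RKIP, against 9.01, 9.09 and 9.09 on control arrays. The groups overlapped, with S153E-RKIP replicate 1 below all others. OSMR differed by -0.066 (SE 0.075, adjusted p = 0.706), with a 95% confidence interval from -0.24 to 0.11, and without S153E-RKIP replicate 1 it was 0.010 (adjusted p = 0.949). All 3 OSMR probe sets had a difference below 0, down to -0.22 on 205729_at (adjusted p = 0.321).

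LIFR encodes the chain that binds leukemia inhibitory factor. Its probe set with the highest signal gave 8.55, 8.89 and 9.02 on the arrays labelled S153E-RKIP, against 9.21, 9.22 and 9.11 on control arrays. The arrays labelled S153E-RKIP were all lower and spread more widely, with replicate 1 the lowest. LIFR differed by -0.36 (SE 0.11, adjusted p = 0.184), with a 95% confidence interval from -0.62 to -0.10. Without S153E-RKIP replicate 1 the difference was -0.23.

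On the dimmer LIFR probe set 225571_at the signal was 6.86, 7.04 and 7.02 on the arrays labelled S153E-RKIP, against 7.42, 7.71 and 7.53 on control arrays. The groups lay clearly apart, and this probe set fell by 0.58 (SE 0.089, adjusted p = 0.0191 over all probe sets). The call was lost without any 1 of 5 arrays (adjusted p from 0.0746 to 0.106) and held without control replicate 1. The probe set 205876_at had a difference of -0.48 (adjusted p = 0.0585), and 227771_at one of -0.28 (adjusted p = 0.253), both with lower signals on all 3 arrays labelled S153E-RKIP. Of these, 205876_at was called lower in 4 of its 16 alternatives (adjusted p from 0.0291 to 0.0338). The dimmest probe set, 229185_at, went the other way, with 5.28, 5.31 and 5.28 on the arrays labelled S153E-RKIP against 4.97, 5.11 and 5.13 on control arrays. Its difference was 0.22 (adjusted p = 0.223), so the 5 LIFR probe sets did not share a direction. Where these probe sets lie along the LIFR transcripts was not analysed here. As the mean of all 5 the difference was -0.30 (adjusted p = 0.101).

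STAT3, the transcription factor below gp130, had a flat transcript. Its signal was 10.71, 10.70 and 10.72 on the arrays labelled S153E-RKIP, against 10.75, 10.70 and 10.70 on control arrays. The groups overlapped almost completely. STAT3 differed by -0.0040 (SE 0.052, adjusted p = 0.980), with a 95% confidence interval from -0.12 to 0.12. The 4 STAT3 probe sets had differences from -0.0094 to 0.033. These are transcript levels, and phosphorylation of STAT3 was not measured.

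SOCS3, the feedback inhibitor of gp130 and a STAT3 target, had signals of 7.98, 7.64 and 7.95 on the arrays labelled S153E-RKIP, against 8.18, 8.13 and 8.21 on control arrays. The arrays labelled S153E-RKIP were all lower, with replicate 2 the lowest. SOCS3 differed by -0.32 (SE 0.092, adjusted p = 0.159), with a 95% confidence interval from -0.53 to -0.11, and did not pass the threshold. Without S153E-RKIP replicate 2 the difference was -0.21, and as the mean of its 4 probe sets it was -0.12 (adjusted p = 0.293). Of the other 3 SOCS3 probe sets, 206359_at and 206360_s_at had differences of -0.16 and -0.10, and 214105_at, with a mean signal of 4.56, had one of 0.083. IL6 and SOCS3 thus had differences of opposite sign, of which only that of IL6 passed the test.

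**Figure D3:**
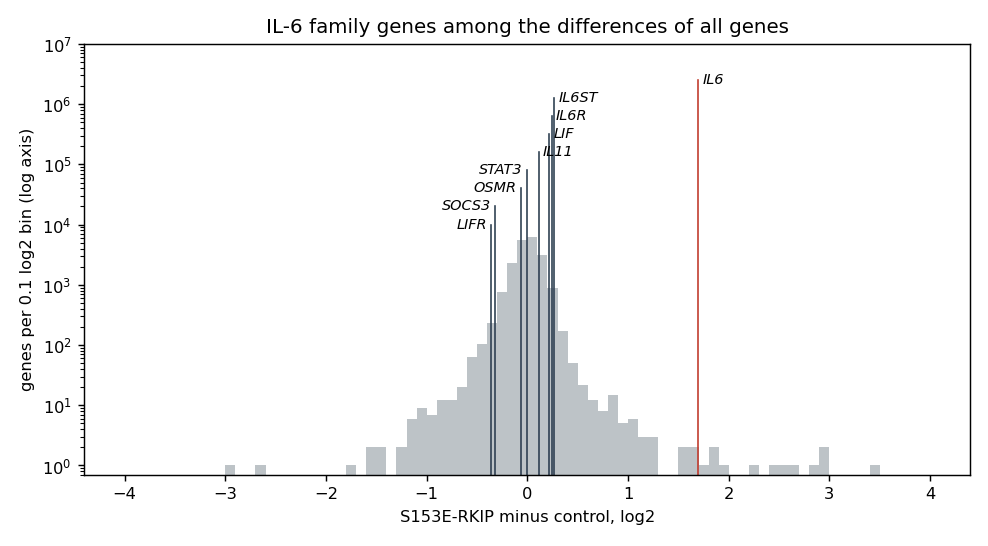
Distribution of the differences of all 19775 genes, S153E-RKIP minus control, in bins of 0.1 on the log2 scale with a logarithmic count axis, and the 9 member genes as vertical lines. IL6 (red, called higher) stands at 1.70 in the right tail, while the other 8 (dark) lie between -0.36 and 0.27; line heights only separate the names.

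The rest of the pathway was read from lists of 73 genes outside the family's members, of which 68 were measured. Of these, 2 rose and 2 fell, where 1.9% of all genes were called in either direction, and the median difference was -0.014. None of 5 other family cytokines was called. All 5 had mean signals below the median of all genes, and the smallest p among them belonged to EBI3, a subunit of interleukin-27 and interleukin-35 (0.27, adjusted p = 0.250), at 0.15 without control replicate 3. None of 4 other family receptors was called. The smallest p was that of IL27RA, the interleukin-27 receptor chain (0.23, adjusted p = 0.154). With its probe sets averaged it was called higher (0.28, adjusted p = 0.0302).

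Further down, none of the 4 Janus kinases was called. JAK2, a kinase bound to gp130 and other cytokine receptors, had a difference of -0.17 (adjusted p = 0.231), or -0.095 with its probe sets averaged (adjusted p = 0.417). None of the 4 measured STAT genes other than STAT3 was called, with STAT5A, a factor used by prolactin and growth hormone receptors, at 0.22 (adjusted p = 0.275), or 0.14 without S153E-RKIP replicate 2. Of 8 genes for signal adaptors and receptor shedding none was called, and GAB1, an adaptor that links gp130 to other kinase pathways, had a difference of -0.21 (adjusted p = 0.232), or -0.14 without control replicate 2. At an unadjusted p under 0.05 these 5 lists held 1 cytokine, 2 receptor, 1 Janus kinase, 2 STAT and 1 adaptor genes, where 15.7% of all genes were.

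Of 14 negative regulators of cytokine signalling 2 fell, none rose and 12 were not called, where 1.21% of all genes fell and 0.688% rose. Their median difference was -0.077, against 0.010 over all genes. At an unadjusted p under 0.05 there were 5 of the 14, where 15.7% of all genes were. All arrays labelled S153E-RKIP lay below all control arrays in 6 and above them in 0, as in 10.8% and 9.31% of all genes. SOCS2, an inhibitor best known for restraining growth hormone signalling, had signals of 10.66, 10.39 and 10.48 on the arrays labelled S153E-RKIP, against 11.11, 11.10 and 11.06 on control arrays. The groups lay well apart. It fell by 0.58 (SE 0.076, adjusted p = 0.00850), or 1.49-fold. The call was lost without control replicate 1, 2 or 3 (adjusted p = 0.0690, 0.0510 and 0.0507).

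SOCS6, another member of that inhibitor family, gave 6.58, 6.65 and 6.64 on the arrays labelled S153E-RKIP, against 6.92, 6.98 and 6.99 on control arrays. It fell by 0.34 (SE 0.056, adjusted p = 0.0233), or 1.27-fold. Each of the 6 arrays left out in turn ended that call (adjusted p from 0.0566 to 0.122), and so did averaging its probe sets (-0.18, adjusted p = 0.134).

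Of 29 genes commonly listed as STAT3 targets 2 rose, none fell and 27 were not called, where 0.688% of all genes rose and 1.21% fell. Their median difference was 0.010, against 0.010 over all genes. At an unadjusted p under 0.05 there were 7 of the 29, where 15.7% of all genes were. All arrays labelled S153E-RKIP lay above all control arrays in 3 and below them in 3, as in 9.31% and 10.8% of all genes. The lowest difference of the list was -0.42 (adjusted p = 0.0924), in a gene that was not called. ICAM1, an adhesion molecule gene that NF-kB also switches on, had signals of 9.25, 9.44 and 9.44 on the arrays labelled S153E-RKIP, against 7.97, 8.43 and 8.23 on control arrays. It rose by 1.17 (SE 0.11, adjusted p = 0.00194), or 2.25-fold, and its call held in all 17 alternatives. CEBPD, a transcription factor gene of the acute phase response, had 8.16, 8.65 and 8.83 on the arrays labelled S153E-RKIP, against 7.32, 7.72 and 7.51 on control arrays. It rose by 1.03 (SE 0.17, adjusted p = 0.0219), or 2.04-fold. That call was lost without any 1 of the arrays other than S153E-RKIP replicate 1 (adjusted p from 0.0501 to 0.132). As the mean of its probe sets CEBPD rose by 0.60 (adjusted p = 0.00867).

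**Figure D4:**
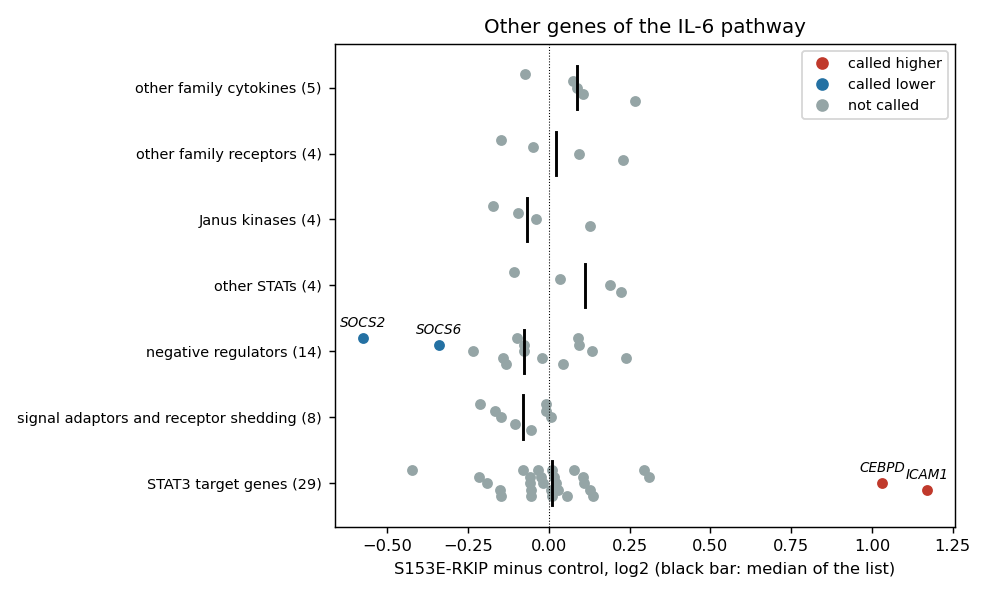
Differences of the 68 measured pathway genes outside the family's members, S153E-RKIP minus control on the log2 scale, by list, with the number measured in brackets. Each point is a gene, colour marks the calls, and black bars are list medians, which lie between -0.080 and 0.11. SOCS2 and SOCS6 (blue) were called lower, and ICAM1 and CEBPD (red) were called higher.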

How the data were processed

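Total RNA was labelled from 1 µg per array, per the labels' protocols. The deposited values are log2 signals, 1 per probe set and array, which the authors computed by RMA, as the submitters' processing notes state. That method subtracts background, forces all arrays to 1 distribution of probe signals and then combines the probes of a probe set. A shift of most genes in 1 direction would therefore not show. No version was stated.

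Groups came from the sample titles. Of 54675 probe sets 62 control probe sets were left out, and 41091 of the rest have 1 gene symbol in the platform annotation. A gene was read by its probe set with the highest mean over the 6 arrays (19775 genes, no filter on dim genes). limma 3.58.1 under R 4.3.3 (lmFit, eBayes, two-sided) gave differences, standard errors, 95% intervals and Benjamini-Hochberg adjusted p-values over all genes, and separately over all probe sets. The procedure was tested on simulated data. Of 50 genes changed there by 1.3-fold 27 were called in the right direction, and of 50 changed by 1.5-fold 37 were. At 2-fold 49 of 50 were called, and of 19575 unchanged genes 11 were. Changes smaller than 1.3-fold were not simulated. Array medians over probe sets were 5.65, 5.67 and 5.63 on the arrays labelled S153E-RKIP, each above those of the control arrays (5.60, 5.62 and 5.61). The cause of this small offset was not tested.

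The members and lists were chosen with earlier results of these data known. Named were all members, called genes of each pathway list (at most 4), otherwise its gene with the smallest p, and the 5 genes most correlated with the called member of smallest p. Some genes are not reported here. Promoter stretches came from RefSeq (GRCh38.p14), and figures from matplotlib 3.10.9.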

Additional observations from a re-analysis of the deposited data

How the results depend on the processing

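The 17 alternatives changed the probe set rule, the filter on dim features, the normalisation, the variance moderation, the array weights, the threshold or the arrays. The count of member genes called higher was 1 in each except with trend and robust estimation (2, with IL6ST added), and none was called lower in any. Without 1 array in turn the counts were 1 to 1 for member genes called higher, 0 to 0 for lower, 1 to 1 for member probe sets higher, 0 to 1 for lower, 1 to 2 for pathway genes higher and 0 to 1 for lower. Member probe sets called lower numbered 2 (with 205876_at of LIFR added) with only features above the median level, with only features above 6 on at least 3 arrays, with equal array medians, and with trend and robust estimation, where 2 were called higher, and 0 at an adjusted p under 0.01. At that threshold 1 pathway gene was called higher and 1 lower, and with the mean of all probe sets of a gene 3 were called higher and 1 lower. Pathway genes called lower numbered 3 with only features above the median level, with equal array medians, and with trend and robust estimation, against 2 with the values as reported. No called difference changed sign. The cause of these changes was not tested, apart from the stricter threshold. With the replicate number as a block (replicate block) IL6 had the same difference of 1.70 (adjusted p = 8.37e-04), 332 genes were called in place of 376, and no member or named pathway gene changed its call. Same-numbered arrays deviated together with r of 0.13, 0.26 and -0.044, and differently numbered arrays with r from -0.27 to 0.13. These few values do not settle whether the numbers mark pairs, and the main fit did not take them as pairs. Over all genes 124 to 303 were called without 1 array in turn, against 376 with all. With trend and robust estimation 600 were called, and 147 at an adjusted p under 0.01. With equal array medians 116 of 464 calls were higher, against 136 of 376. Signal over background was not measured, and 7 of the 30 member probe sets lay below the median of all probe sets.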

Other observations

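Transcripts named for their place beside family members were read after the members' values were seen. IL6-AS1, the antisense transcript at IL6, had signals of 6.42, 6.23 and 6.41 on the arrays labelled S153E-RKIP, against 6.13, 6.15 and 6.07 on control arrays. The groups did not overlap, and the difference was 0.24 (limma adjusted p = 0.214 over all probe sets). LIF-AS2 had a difference of 0.31 (adjusted p = 0.280) at a mean signal of 4.82, below the median of all probe sets (5.62). The divergent transcript IL6ST-DT and the antisense transcript IL6R-AS1 had differences of 0.13 and 0.15 with overlapping groups, at mean signals of 4.87 and 3.90. None of these 4 transcripts was called.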
